A study of Mus musculus with 12 samples.

Results

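Organs of Corti of mice lacking both clarins (Clrn1-/-Clrn2-/-) were compared with organs of Corti of mice lacking clarin-1 alone (Clrn1-/-), so that the genotypes differed in the Clrn2 allele while both lacked clarin-1. All genes were considered and were read by function, in 3 libraries of each genotype, 6 of the 12 libraries of the series. Every library was made from the organ of Corti of mice at postnatal day 21, dissected away from the stria vascularis and the modiolus. The Clrn1-/- mice carried a germ-line deletion of Clrn1 exon 4, made by crossing floxed mice with a PGK-cre line active in all cells. The Clrn2-/- mice carried the clarinet allele, a nonsense change at the tryptophan codon at position 4, and the Clrn1-/-Clrn2-/- mice came from crossing both lines. Wild-type and Clrn2-/- mice, 3 libraries each, served as the second pair of genotypes that differs in Clrn2. The lines were bred separately, so that breeding and genotype cannot be told apart, and the number of animals behind a library was not stated. P-values therefore measure the spread between libraries, which may be partly technical.

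Clarins are small membrane proteins that cross the membrane several times. Clarin-1 is the product of an Usher syndrome gene, lost in a form of combined deafness and progressive blindness, and clarin-2 is required for hearing in mice and humans. Both are found in the sensory hair cells of the cochlea, whose hair bundles of actin-filled stereocilia are deflected against the tectorial membrane by sound and open the mechanoelectrical transduction channel. Inner hair cells then release glutamate at ribbon synapses onto the primary auditory neurons, and supporting cells, joined by tight and gap junctions, surround the hair cells and recycle potassium.

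The allele that distinguished the genotypes lies at the start of the Clrn2 coding sequence. The first 36 coding bases of the reference transcript are shown to locate it (GRCm38, chr5:45453811-45453846, plus strand, exon 1). Capitals mark the tryptophan codon, at chr5:45453820-45453822, that the clarinet allele turns into a stop:
Clrn2: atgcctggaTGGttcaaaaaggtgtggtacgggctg

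The Clrn1 gene was low in both genotypes, with 3.04, 2.69 and 2.75 CPM (counts scaled to the library total) in the Clrn1-/- libraries and 1.77, 2.44 and 2.71 CPM in the double-mutant libraries. The wild-type and Clrn2-/- means were 25.8 ± 2.47 and 28.8 ± 2.83 CPM (SD, n = 3), so both genotypes lacking clarin-1 stood apart from those with it. The Clrn2 transcript measured 0.854, 0.854 and 1.04 CPM in the Clrn1-/- libraries and 1.18, 0.921 and 1.13 CPM in the double-mutant libraries. These ranges overlapped (log2 fold change 0.23, SE 0.24, adjusted p = 0.52), and a single changed base does not show in gene counts, so the Clrn2 label of these 6 libraries could not be checked from its own transcript. For Clrn2 the wild-type mean was 2.72 ± 0.727 CPM and the Clrn2-/- mean 1.23 ± 0.172 CPM (SD, n = 3).

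The 6 libraries held 30008679 to 38742142 counts assigned to genes. Of 55348 genes, 19052 passed the filter on low counts. Calls of over- and under-expression rest on edgeR's quasi-likelihood test, with 0.05 as the highest p allowed after Benjamini-Hochberg adjustment and 1.5-fold as the smallest change. Log2 fold changes are given as double mutant over Clrn1-/-, with the standard error (SE) of the fit.

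Loss of clarin-2 on top of clarin-1 was accompanied by 880 over-expressed genes (4.62% of those tested) and 498 under-expressed genes (2.61%), together 7.23%. Without the fold minimum, 2996 genes (15.7%) were higher and 2787 (14.6%) lower at the adjusted p alone, so most of the differences were smaller than 1.5-fold. At least 2-fold changes were found for 351 over-expressed and 212 under-expressed genes, and at least 16-fold changes for 8 and 14. The 6 libraries did not overlap between the genotypes for 868 of the 880 over-expressed genes (98.6%) and 488 of the 498 under-expressed genes (98.0%), beside 45.9% of all genes tested. Among the gene groups, over-expressed genes were frequent in epithelial junctions, the tectorial membrane, endoplasmic reticulum chaperones, heat shock proteins and immediate-early genes. They were also frequent in the interferon-inducible Ifi200 family and in supporting cell and red blood cell markers. Under-expressed genes were frequent in glutamate receptors and potassium channels. Lists of ribosomal RNA repeat genes (over-expressed) and neuronal cytoskeleton genes (under-expressed) held many calls too. Those lists were drawn up with the results known, so their shares are only a description.

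**Figure D1:**
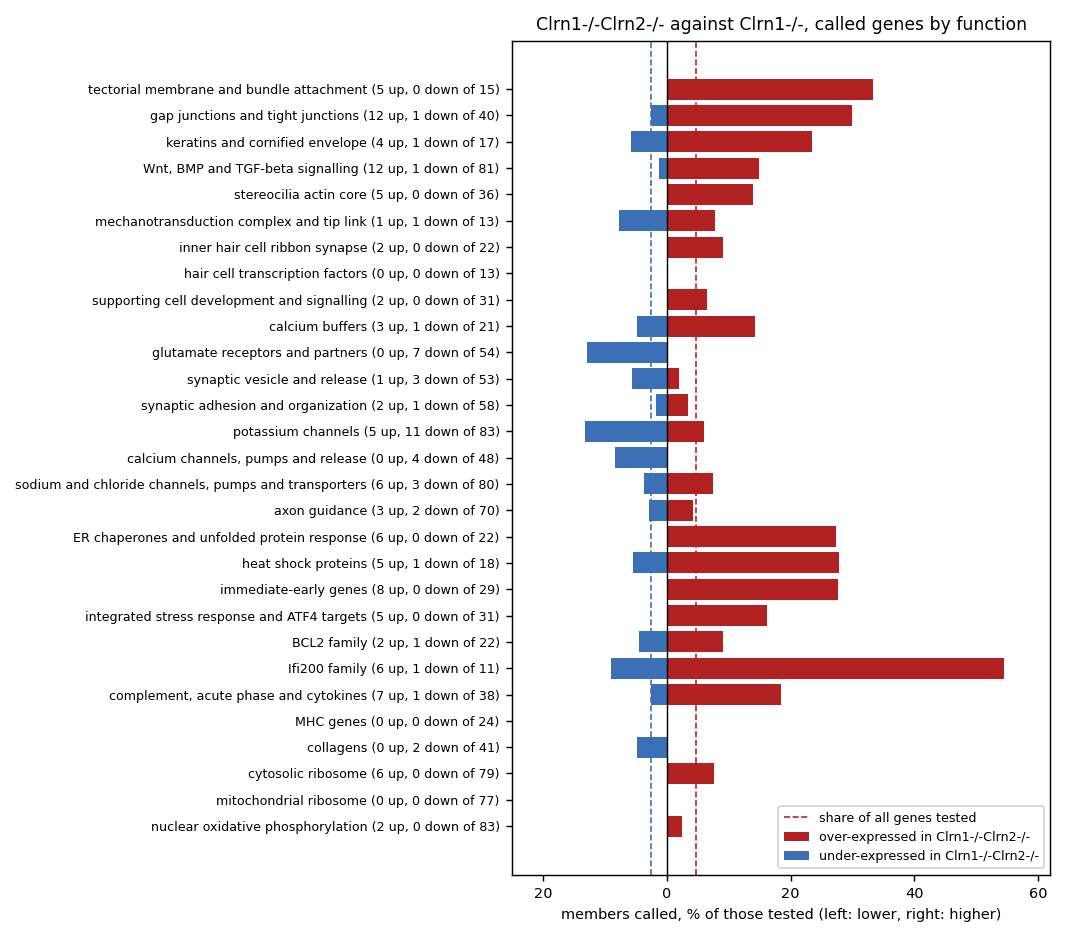
Percentage of the tested members of each of 29 gene lists called over-expressed (right) or under-expressed (left) in Clrn1-/-Clrn2-/- against Clrn1-/- organs of Corti, with dashed lines at the shares of all genes tested (4.62% and 2.61%). The Ifi200 family reaches furthest to the right (6 of 11 genes) and the potassium channels furthest to the left (11 of 83 genes).

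The called genes differed in which genotype stood apart from the rest of the series. As a description, each gene's libraries were set against the range of the 6 wild-type and Clrn2-/- libraries. Of the 880 over-expressed genes, only the double mutant lay wholly outside that range for 393 (44.7%), only Clrn1-/- for 203 (23.1%) and both for 94 (10.7%). Of the 498 under-expressed genes, only the double mutant lay outside for 124 (24.9%), only Clrn1-/- for 201 (40.4%) and both for 68 (13.7%). Over all genes tested the double mutant alone lay outside for 21.1% and Clrn1-/- alone for 10.6%. For 404 of the 1378 called genes (29.3%) it was thus the Clrn1-/- libraries alone that left the range of the other genotypes.

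Several genes of the tectorial membrane and its attachments were over-expressed in the double mutant. Of 15 tested members, 5 were over-expressed and none under-expressed. Their median log2 fold change was 0.33, beside 0.01 over all genes, and for all 5 called genes only the double mutant lay outside the wild-type and Clrn2-/- range. Ceacam16, which encodes an adhesion protein of the striated-sheet matrix of the tectorial membrane, measured 1638, 1672 and 1931 CPM in the Clrn1-/- libraries and 3718, 4148 and 4020.4 CPM in the double-mutant libraries. Every double-mutant library exceeded every Clrn1-/- library (log2 fold change 1.18, SE 0.09, adjusted p = 2.2e-07). Otoa, which encodes otoancorin, the protein that anchors the tectorial membrane to the spiral limbus, measured 210.3, 202 and 210.1 CPM against 413, 436 and 444 CPM. It was 2.08-fold over-expressed with no overlap (adjusted p = 1.2e-07). Otog, the gene of the tectorial glycoprotein otogelin, rose from 168, 173 and 169 CPM to 262, 269 and 255 CPM (log2 fold change 0.62, adjusted p = 2.1e-05). Tmprss3, a membrane serine protease gene of inherited deafness, stood at 103, 92.2 and 103 CPM against 212, 226 and 208 CPM (log2 fold change 1.12, adjusted p = 3.4e-08). Itga8, an integrin subunit gene, was at 30.3, 26.7 and 23.8 CPM in Clrn1-/- and at 43.1, 43.9 and 37.6 CPM in the double mutant, close to the fold minimum (log2 fold change 0.63, adjusted p = 0.00032). Its call was lost without Clrn1-/- replicate 3, where its fold fell below the minimum, and likewise without double-mutant replicate 2.

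Some supporting cell markers were over-expressed as well. Of 20 markers, 6 were over-expressed and none under-expressed, and 12 were higher and 2 lower at the adjusted p alone. Their summed level was 3419.5 to 3763 CPM in the Clrn1-/- libraries and 4791 to 5138 CPM in the double-mutant libraries, with wild-type at 3172 to 3528 CPM and Clrn2-/- at 3492 to 4031 CPM. In these bulk samples more cells of a type and more RNA per cell cannot be told apart. Epyc, an extracellular matrix proteoglycan gene, measured 660.1, 579 and 752 CPM against 975, 1095 and 1059 CPM (log2 fold change 0.65, adjusted p = 0.00012), a call that fell below the fold minimum without Clrn1-/- replicate 2. S100a1, a calcium-binding protein gene used as a supporting cell marker, rose from 403, 401 and 466 CPM to 655, 697 and 677 CPM (log2 fold change 0.67, adjusted p = 5.6e-06). Gjb2, which encodes the gap junction protein connexin 26, the commonest gene of inherited deafness, was at 379, 323 and 348 CPM against 529, 555 and 547 CPM (log2 fold change 0.64, adjusted p = 1e-05), and fell below the fold minimum without Clrn1-/- replicate 2. For each of these 3 genes the double-mutant libraries lay above all the Clrn1-/- libraries. Among 31 genes of supporting cell development, only Lgr6 and Heyl were called. Lgr6, a Wnt-pathway receptor gene, was at 8.89, 7.97 and 9.19 CPM against 19.6, 24.1 and 21.9 CPM (log2 fold change 1.33, adjusted p = 1.8e-07), and Heyl, a Notch effector gene, was 1.55-fold over-expressed (adjusted p = 2.5e-05).

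Junction and keratin genes of epithelia formed a larger group. Of 40 gap and tight junction genes, 12 were over-expressed and 1 was under-expressed, with 9 to 12 over-expressed under the alternatives that kept the fold minimum. Cldn9, a claudin of hair cell and supporting cell tight junctions, measured 90.1, 86.9 and 94.8 CPM in Clrn1-/- and 188, 197 and 201 CPM in the double mutant (log2 fold change 1.11, adjusted p = 1.8e-07). Cldn3, another tight junction claudin gene, was at 19.6, 18.9 and 20 CPM against 37.6, 40.8 and 38.3 CPM (log2 fold change 1.00, adjusted p = 5e-06). Neither gene's libraries overlapped between the genotypes. Krt8 and Krt18 encode the paired keratins of simple epithelia. Krt8 was at 14.6, 14.2 and 14.8 CPM against 54.7, 56.1 and 56.2 CPM, a 3.83-fold difference (adjusted p = 7.3e-12), with wild-type at 7.42 ± 0.592 and Clrn2-/- at 15.2 ± 0.922 CPM (SD, n = 3). Krt18 stood at 13.2, 12.7 and 13.9 CPM against 38.4, 37.5 and 36.8 CPM (log2 fold change 1.50, adjusted p = 4.9e-10). The replicates of each genotype were within a narrow range for both keratins.

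A list of 49 tested genes of epithelial adhesion and polarity, drawn up after these results had been seen and therefore only counted, held 34 over-expressed and 0 under-expressed genes, with a median log2 fold change of 0.75. For 31 of the 34, only the double mutant lay outside the wild-type and Clrn2-/- range. The summed level of the list was 1679.8 to 1751 CPM in Clrn1-/-, 3053 to 3189 CPM in the double mutant, 1343 to 1452 CPM in wild-type and 1636 to 1892 CPM in Clrn2-/-. Bcam, which encodes a laminin-binding adhesion molecule, measured 328, 322 and 339 CPM against 828, 869 and 834 CPM (log2 fold change 1.36, SE 0.07, adjusted p = 3.8e-09). Epcam, the epithelial cell adhesion molecule gene, was at 89.1, 91.4 and 94.2 CPM against 170.4, 176 and 175 CPM (log2 fold change 0.92, adjusted p = 2.8e-07). Dsp, which encodes the desmosomal plaque protein desmoplakin, was at 17.2, 13.6 and 14.5 CPM against 32.4, 32.6 and 33.1 CPM (log2 fold change 1.12, adjusted p = 1.6e-07). In all 3 genes the double-mutant libraries were above every Clrn1-/- library. Not every epithelial gene followed: Cdh1, the gene of the adherens junction protein E-cadherin, was at 166, 154 and 152 CPM against 178, 175 and 180.4 CPM, a log2 difference of 0.18 that passed the adjusted p (0.0098) but not the fold minimum.

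Among the largest increases were genes of the cornified envelope and matrix that wild-type organs barely transcribed. Loxl4, a matrix cross-linking amine oxidase gene, measured 3.92, 3.78 and 3.04 CPM in Clrn1-/- and 13.6, 18.6 and 17.1 CPM in the double mutant (log2 fold change 2.21, adjusted p = 9e-08), with 1.16 ± 0.328 CPM in wild-type and 3.37 ± 0.522 CPM in Clrn2-/- (SD, n = 3). Sprr1a, a cornified envelope precursor gene, was at 1.46, 1.47 and 1.51 CPM against 5.28, 7.22 and 5.77 CPM (log2 fold change 2.04, adjusted p = 1.1e-05), with 0.136 ± 0.0529 CPM in wild-type. For both genes the order of the genotype means was wild-type, then the single mutants, then the double mutant.

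In Wnt, BMP and TGF-beta signalling, 12 of 81 genes were over-expressed and 1 was under-expressed. Wnt7b, a Wnt ligand gene, rose from 28.4, 26.6 and 29.8 CPM to 55.3, 57.9 and 55.2 CPM (log2 fold change 0.99, adjusted p = 2.3e-06). Dkk2, a secreted Wnt modulator gene, was at 27.1, 21.3 and 26.8 CPM against 52, 51.8 and 52.4 CPM (log2 fold change 1.06, adjusted p = 1.2e-07). Gdf6, a BMP-family ligand gene, was at 43.0, 47.3 and 55.5 CPM against 82.7, 103 and 87.5 CPM (log2 fold change 0.90, adjusted p = 8.3e-05). The double-mutant libraries exceeded the Clrn1-/- libraries throughout. Wnt4 was the under-expressed member, at 37.6, 40.5 and 34.8 CPM against 29.5, 24.3 and 21.3 CPM (log2 fold change -0.59, adjusted p = 0.0023). Its call was lost without Clrn1-/- replicate 2 and without double-mutant replicate 2 or 3.

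Hair bundle genes were over-expressed where they were called. Of 36 genes of the stereocilia actin core, 5 were over-expressed and none under-expressed, and 19 were higher at the adjusted p alone. That count of 5 lay between 3 and 7 across the alternatives that kept the fold minimum. It fell to 3 when library size alone set the scale, with unstranded counts, without Clrn1-/- replicate 1 or 2, without Clrn2-/- replicate 2, or without double-mutant replicate 2 or 3. Gsn, which encodes the actin-severing protein gelsolin, also present in many other cells, was the largest, at 686, 729 and 786 CPM against 1516, 1542 and 1589 CPM (log2 fold change 1.08, SE 0.06, adjusted p = 2.9e-09). Slitrk6, a transmembrane protein gene of inherited deafness, rose from 25.0, 24.2 and 27.0 CPM to 37.5, 44.6 and 39.5 CPM (log2 fold change 0.68, adjusted p = 6.6e-05). Ptprq, which encodes a phosphatase of the stereocilia shaft connectors, was at 21.1, 18.6 and 22.3 CPM against 31.4, 35.3 and 31.4 CPM (log2 fold change 0.66, adjusted p = 0.0021), a call that fell below the fold minimum without Clrn1-/- replicate 2. Each of these 3 genes had its double-mutant libraries above its Clrn1-/- libraries. Xirp2, an actin-binding gene, passed narrowly (log2 fold change 0.62, adjusted p = 0.045), and its call was lost when library size alone set the scale, with unstranded counts, and without any 1 of the Clrn1-/- or double-mutant libraries or without Clrn2-/- replicate 2.

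Of 10 Usher and ankle link genes, Pcdh15 and Ush1c were over-expressed. Pcdh15, the gene of the lower tip link protein protocadherin 15, measured 14.3, 13.7 and 14.9 CPM in Clrn1-/- and 21.3, 24.3 and 23.4 CPM in the double mutant (log2 fold change 0.69, adjusted p = 1.4e-05). Ush1c, the gene of the scaffold harmonin, was at 40.4, 43.1 and 46.6 CPM against 69.0, 68.0 and 67.3 CPM (log2 fold change 0.65, adjusted p = 3.2e-05), which fell below the fold minimum without replicate 1 of both genotypes. The double-mutant libraries lay above the Clrn1-/- libraries for both. Tmc1, which encodes the transduction channel, was at 17.3, 18.9 and 21.5 CPM against 23.8, 26.5 and 23.2 CPM, a difference that passed the adjusted p (0.025) but not the fold minimum. Tmc2, the paralogue of Tmc1, was under-expressed at very low levels, 0.316, 0.440 and 0.338 CPM against 0.131, 0.149 and 0.0516 CPM (adjusted p = 0.0091). Neither DESeq2 nor the fit without double-mutant replicate 3 called it. None of 13 hair cell transcription factor genes was called by edgeR's test, limma-voom or DESeq2, while 7 had an unadjusted p under 0.05. Of 24 genes that the study names from its sequencing or measured by PCR, 5 were over-expressed and 1 was under-expressed; 11 more were higher and 3 lower at the adjusted p alone, and 4 did not pass. That list was chosen by the study on these samples and is no independent evidence of its direction.

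Hair cell markers were divided. Of 20 markers only Slc17a8 was called (over-expressed), the median log2 fold change was 0.32, and the summed level went the other way, 3067 to 3312 CPM in Clrn1-/- and 2757 to 2986 CPM in the double mutant. The sum was dominated by Calb2, the calretinin gene, at 1954, 1958 and 2063 CPM against 1577, 1756 and 1742 CPM (log2 fold change -0.24, adjusted p = 0.036), which neurons also express. Both genotypes lacking clarin-1 were below wild-type (3896 to 4413 CPM) and Clrn2-/- (3555 to 4182 CPM) in this sum. Slc17a8 encodes VGLUT3, the transporter that fills inner hair cell synaptic vesicles with glutamate. It measured 15.3, 15 and 17.0 CPM in Clrn1-/- and 31.6, 29.9 and 33.9 CPM in the double mutant (log2 fold change 1.01, SE 0.09, adjusted p = 9.4e-07). Wild-type stood at 29.3 ± 2.97 CPM and Clrn2-/- at 34.4 ± 4.16 CPM (SD, n = 3), so the Clrn1-/- libraries were the ones apart and the double mutant lay at the wild-type level. Otof, which encodes otoferlin, the calcium sensor of inner hair cell exocytosis, was at 75.9, 82.4 and 89.8 CPM against 103, 111 and 110.2 CPM, past the adjusted p (0.0078) but not the fold minimum. Among 22 ribbon synapse genes 2 were over-expressed and none under-expressed, while 5 were higher and 13 lower at the adjusted p alone. Ctbp2, the gene whose product includes the ribbon protein, did not pass the test (log2 fold change 0.09, SE 0.05, adjusted p = 0.24).

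Many neuronal and synaptic genes were lower in the double mutant. Of 54 glutamate receptor and partner genes, 7 were under-expressed and none over-expressed (median log2 fold change -0.36), and 32 were lower and 3 higher at the adjusted p alone. The count of 7 lay between 5 and 10 across the alternatives that kept the fold minimum, with 5 without Clrn1-/- replicate 2 and 10 without Clrn1-/- replicate 1. Cacng2, the gene of the AMPA receptor subunit stargazin, fell from 67.3, 72.7 and 73.8 CPM to 45.3, 47.1 and 48.3 CPM (log2 fold change -0.60, adjusted p = 2.2e-06). Gria1, an AMPA receptor subunit gene, was at 18.0, 19.1 and 19.7 CPM against 13.2, 11.2 and 10.4 CPM (log2 fold change -0.71, adjusted p = 0.002). Grin2c, an NMDA receptor subunit gene, was at 12.4, 13.9 and 14.5 CPM against 7.54, 8.32 and 8.84 CPM (log2 fold change -0.72, adjusted p = 0.00032). The groups did not overlap in these 3 genes. The wild-type means were 12.1 ± 3.6 CPM for Gria1 and 11 ± 1.3 CPM for Grin2c (SD, n = 3), and the Grin2c mean lay between those of the 2 genotypes. For Gria1 the Clrn2-/- mean was 10.4 ± 0.663 CPM, so the Clrn1-/- libraries were the high ones and the double mutant lay near wild-type. Of the 7 called genes, only the double mutant lay outside the wild-type and Clrn2-/- range for 1, and only Clrn1-/- for 2. Gria2, the calcium-limiting AMPA receptor subunit gene, was lower at the adjusted p alone (log2 fold change -0.53, adjusted p = 0.00042).

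Vesicle genes followed the same direction, with 3 of 53 under-expressed, 1 over-expressed, and 36 lower against 5 higher at the adjusted p alone. Up to 7 were under-expressed without replicate 1 of both genotypes, as several members lay just short of the fold minimum. Sv2c, a synaptic vesicle glycoprotein gene, measured 278, 264 and 253 CPM in Clrn1-/- and 102, 99.7 and 113 CPM in the double mutant, a 2.53-fold lower level (log2 fold change -1.34, SE 0.06, adjusted p = 1.5e-09). Sv2b, its paralogue, was at 204, 206 and 210.4 CPM against 105, 101 and 108 CPM (log2 fold change -0.99, adjusted p = 3.1e-09). Unc13a, which encodes the vesicle-priming factor Munc13-1, was at 59.6, 65.4 and 62.1 CPM against 40.7, 38.4 and 40.6 CPM (log2 fold change -0.65, adjusted p = 1.4e-07). For Sv2c and Unc13a the double mutant was below every wild-type and Clrn2-/- mean. Snap25, a core gene of vesicle fusion, was lower at the adjusted p alone, at 2306, 2293 and 2368 CPM against 1576, 1571 and 1611 CPM (log2 fold change -0.55, adjusted p = 2.3e-06). Nlgn3, a postsynaptic adhesion gene, was 1.71-fold under-expressed (adjusted p = 1.5e-05) and the only such gene of 58 in synaptic adhesion and organization, where 2 were over-expressed.

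A list of 39 tested genes of neuronal excitability and cytoskeleton, again drawn up with the results known, held 15 under-expressed and 0 over-expressed genes (median log2 fold change -0.43). Only the double mutant lay outside the wild-type and Clrn2-/- range for 10 of the 15, only Clrn1-/- for 2 and both for 3. Ank2, which encodes the membrane-cytoskeleton adaptor ankyrin-B, had 1561, 1465 and 1322 CPM in Clrn1-/- and 647, 619 and 649.9 CPM in the double mutant (log2 fold change -1.18, SE 0.06, adjusted p = 5.5e-09). Wild-type was at 1082 ± 8.99 CPM and Clrn2-/- at 886 ± 69.2 CPM (SD, n = 3), between the extremes. Scn8a, the sodium channel gene of axon initial segments and nodes, was at 344, 349 and 322 CPM against 215, 210.4 and 215 CPM (log2 fold change -0.67, adjusted p = 2.7e-07). Hapln4, a link protein gene of the perineuronal and perinodal matrix, was at 346, 359 and 344 CPM against 196, 207 and 208 CPM (log2 fold change -0.78, adjusted p = 7.6e-07). Both were lower in every double-mutant library. Map2, a dendritic microtubule protein gene, was 1.52-fold under-expressed (adjusted p = 3.1e-07), and Crmp1, a growth cone gene, 1.68-fold (adjusted p = 6e-07).

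Marker genes of the primary auditory neurons were mostly lower as well. Of 23 markers 1 was over-expressed and 1 under-expressed, but 15 were lower and 2 higher at the adjusted p alone, and their median log2 fold change was -0.28. Their summed level was 13503 to 14014 CPM in Clrn1-/- and 10328 to 10558 CPM in the double mutant, with wild-type at 14369 to 15736 CPM and Clrn2-/- at 12492 to 14349.7 CPM. The double-mutant libraries were thus the lowest of the 4 genotypes. The part of neuron content in the neuronal gene groups was not tested, and fewer neurons in the dissected tissue and less RNA per neuron cannot be told apart. Tubb3, a neuronal tubulin gene, overlapped between the genotypes at 429, 449.5 and 481 CPM against 441, 436 and 429.6 CPM (adjusted p = 0.46). Markers of myelin and Schwann cells summed to 23489 to 24339 CPM and 22778 to 24362 CPM, and none of 16 was called by edgeR's test, limma-voom or DESeq2, while 5 had an unadjusted p under 0.05.

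**Figure D2:**
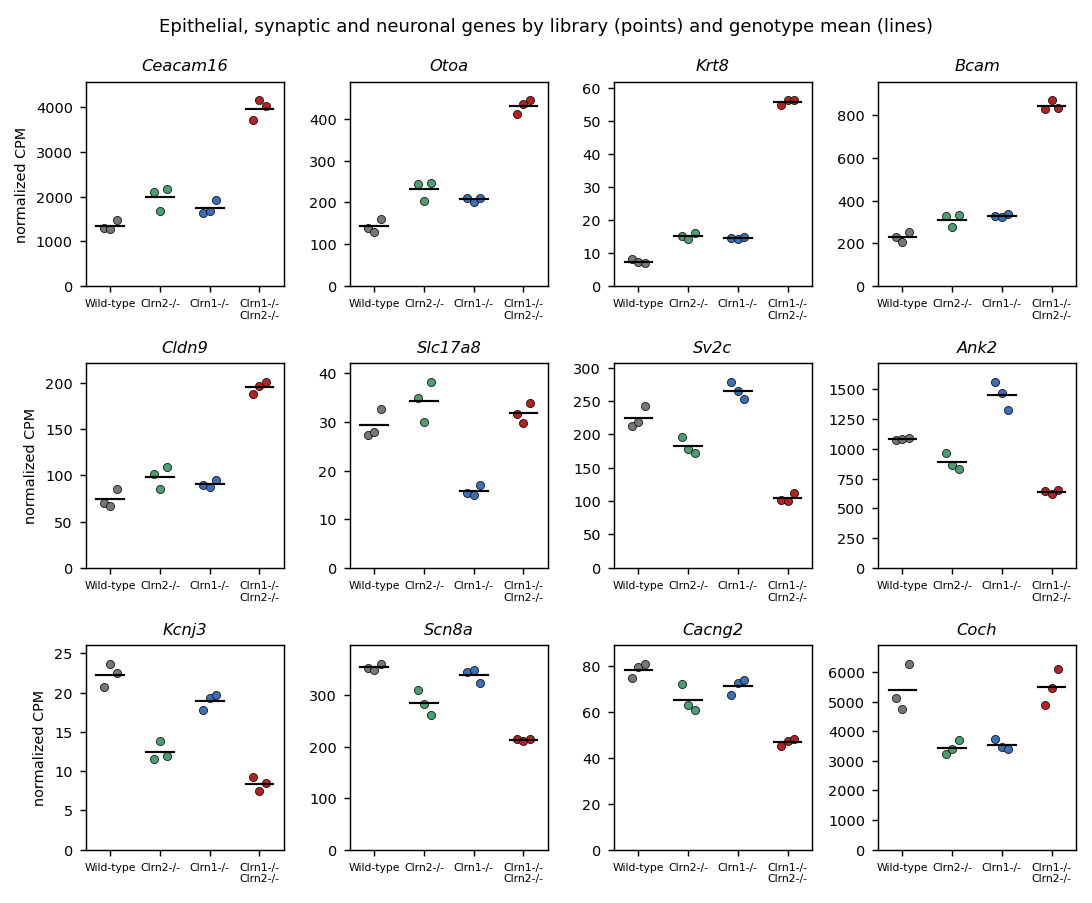
CPM (vertical axis, from 0) of 12 genes in each library of the 4 genotypes, with points for libraries and bars for genotype means. Tectorial and epithelial genes such as Ceacam16 and Krt8 are highest in Clrn1-/-Clrn2-/-, neuronal genes such as Sv2c and Ank2 lowest, and Slc17a8 is low in Clrn1-/- alone.

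**Figure D3:**
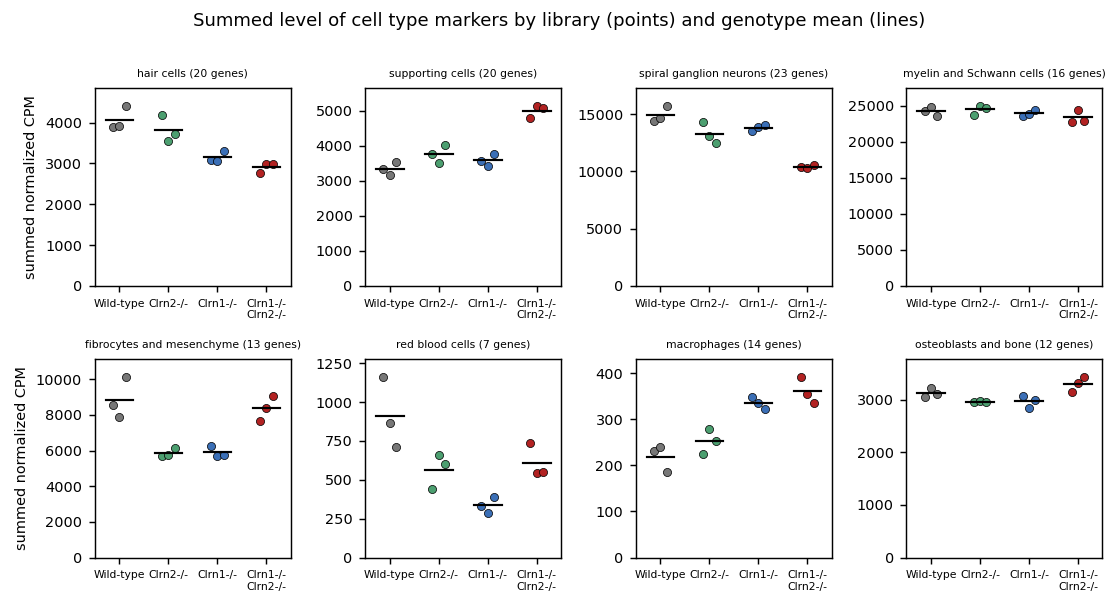
Summed CPM (vertical axis) of 8 cell type marker lists in each library of the 4 genotypes. The supporting cell sum is highest (4791 to 5138 CPM) and the auditory neuron sum lowest (10328 to 10558 CPM) in the Clrn1-/-Clrn2-/- libraries, while the fibrocyte and red blood cell sums are higher in the double mutant than in Clrn1-/-.

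Potassium channel genes were called in both directions. Of 83 genes 5 were over-expressed (6.02%, beside 4.62% of all genes) and 11 under-expressed (13.3%, beside 2.61%), so that the share over-expressed was near that of all genes. Kcnj16, an inward rectifier gene of epithelia, rose from 239.6, 225 and 249.7 CPM to 468, 535 and 504 CPM (log2 fold change 1.08, adjusted p = 1.8e-07). Kcnj15, a related inward rectifier gene, was at 7.21, 6.62 and 6.91 CPM against 13.9, 14.4 and 13.2 CPM (log2 fold change 1.00, adjusted p = 2.1e-05). Kcnj14 was at 1.2, 1.11 and 1.25 CPM against 3.74, 3.00 and 3.38 CPM (log2 fold change 1.50, adjusted p = 1.7e-06), with wild-type at 3.55 ± 0.477 CPM (SD, n = 3). The double mutant was highest of the 4 genotypes for Kcnj16 and Kcnj15, whereas for Kcnj14 the Clrn1-/- libraries were lowest. Kcnj3, a G-protein-gated rectifier gene of neurons, fell from 17.8, 19.3 and 19.6 CPM to 9.28, 7.40 and 8.46 CPM (log2 fold change -1.18, adjusted p = 1.7e-07). Kcnd2, an A-type channel gene, was at 6.80, 6.08 and 6.34 CPM against 3.44, 2.88 and 3.33 CPM (log2 fold change -0.99, adjusted p = 3.4e-06). For both, the double mutant was below the Clrn2-/- means of 12.4 ± 1.17 and 4.43 ± 0.302 CPM (SD, n = 3).

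Calcium channel, pump and release genes were lower where they were called. Of 48 such genes, 4 were under-expressed and none over-expressed. Only Clrn1-/- lay outside the wild-type and Clrn2-/- range for 2 of the 4, and both genotypes did for the other 2. Ryr2, a calcium release channel gene, was at 55.3, 57.5 and 51.9 CPM against 36.5, 33.3 and 34.0 CPM (log2 fold change -0.67, adjusted p = 3e-07). Atp2b2, which encodes the plasma membrane calcium pump of stereocilia and neurons, was at 393, 406 and 392 CPM against 254, 255 and 268 CPM (log2 fold change -0.62, adjusted p = 1.5e-07). Cacna1c, the gene of an L-type calcium channel, was 1.63-fold under-expressed (adjusted p = 4.1e-06). No double-mutant library reached the Clrn1-/- range for these genes. The wild-type means of Atp2b2 (346 ± 9.66 CPM) and Cacna1c (16.5 ± 1.43 CPM, SD, n = 3) lay between those of the 2 genotypes. Ryr1, the skeletal muscle release channel gene, was higher at the adjusted p alone (log2 fold change 0.49, adjusted p = 0.013), with 5.82, 5.41 and 6.83 CPM against 7.77, 8.62 and 9.02 CPM and 0.411 ± 0.106 CPM in wild-type. Of 80 sodium and chloride genes 6 were over-expressed (7.50%) and 3 under-expressed (3.75%), beside the 4.62% and 2.61% of all genes. Fxyd2, a regulatory subunit gene of the sodium pump, rose from 6.61, 7.71 and 7.92 CPM to 21.9, 23.3 and 23.4 CPM (log2 fold change 1.62, adjusted p = 6.3e-08). Slc26a4, which encodes the anion exchanger pendrin, was at 75.9, 65.8 and 72.4 CPM against 121, 117 and 114 CPM (log2 fold change 0.72, adjusted p = 1.6e-05).

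Most endoplasmic reticulum (ER) chaperone genes were higher in the double mutant, the majority of them by less than 1.5-fold. Of 22 tested members 6 were over-expressed and none under-expressed, 18 were higher and none lower at the adjusted p alone, and the median log2 fold change was 0.41. Canx, the gene of the lectin chaperone calnexin, was among those that did not pass (log2 difference -0.05, adjusted p = 0.34). The count of 6 was the same under every alternative that kept the fold minimum. Hspa5 encodes BiP, the main chaperone of the ER lumen and a classical target of the unfolded protein response. It measured 455, 436 and 464 CPM in Clrn1-/- and 815, 777 and 685 CPM in the double mutant (log2 fold change 0.75, SE 0.09, adjusted p = 1e-05). Sdf2l1, an ER chaperone cofactor gene, was at 20.6, 18.1 and 19.9 CPM against 45.2, 38.1 and 31.7 CPM (log2 fold change 0.97, adjusted p = 9.8e-06). Creld2, an ER-stress-inducible gene, was at 28.2, 27.6 and 27.2 CPM against 59.1, 54.5 and 43.7 CPM (log2 fold change 0.92, adjusted p = 7.7e-06). All double-mutant libraries lay above the Clrn1-/- libraries, and replicate 3 was the lowest of the double-mutant libraries in all 3 genes. Manf, which encodes a secreted ER-stress factor, was 1.79-fold over-expressed (adjusted p = 6.5e-05), Pdia4, a disulfide isomerase gene, 1.58-fold (adjusted p = 3.3e-06), and Derl3, an ER-associated degradation gene, 2.13-fold (adjusted p = 3.9e-06). Clrn2-/- means were also above wild-type, at 689 ± 88 against 433 ± 44.1 CPM for Hspa5 and 36 ± 5.23 against 19.2 ± 0.473 CPM for Sdf2l1 (SD, n = 3).

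The promoters of the ER list were read for the ER stress response element, to which the unfolded protein response factors bind together with NF-Y. The element searched was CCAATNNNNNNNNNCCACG on either strand, from 250 bases before to 50 after the RefSeq start, and it was present in 39 of 32851 such windows (0.119%). In the ER list 9 of 19 genes with a promoter entry held it (47.4%). They were the over-expressed Hspa5, Creld2 and Derl3 and 6 genes that were not called, among them Calr, Canx and Dnajc3. Of the 10 genes without it, 2 were over-expressed (Pdia4 and Sdf2l1). Among all tested genes with an entry, it was in 3 of 518 over-expressed (0.579%), 0 of 284 under-expressed and 21 of 12957 in all (0.162%). The 180 bases before the start are shown for the 3 over-expressed genes that hold the element, because they show where it lies (RefSeq, GRCm38.p6, plus strand, Hspa5 at chr2:34771910-34772089, Creld2 at chr15:88819466-88819645, Derl3 at chr10:75893218-75893397). Capitals mark the element, which is in forward orientation in Hspa5 and in reverse orientation, as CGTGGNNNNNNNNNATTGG, in the other 2. A match of these letters is a description and not a measured binding site.
Hspa5: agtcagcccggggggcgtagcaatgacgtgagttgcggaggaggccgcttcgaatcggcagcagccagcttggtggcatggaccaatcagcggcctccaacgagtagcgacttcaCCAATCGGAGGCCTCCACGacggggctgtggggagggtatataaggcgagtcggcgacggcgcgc
Creld2: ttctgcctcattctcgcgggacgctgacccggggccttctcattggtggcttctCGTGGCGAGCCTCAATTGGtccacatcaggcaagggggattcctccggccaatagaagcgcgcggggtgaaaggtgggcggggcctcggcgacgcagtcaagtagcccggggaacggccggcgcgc
Derl3: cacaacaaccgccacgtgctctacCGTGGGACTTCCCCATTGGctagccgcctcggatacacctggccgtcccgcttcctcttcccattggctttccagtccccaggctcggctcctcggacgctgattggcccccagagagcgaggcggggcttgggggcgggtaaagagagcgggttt

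Several heat shock and other stress genes were over-expressed too. Of 18 heat shock genes 5 were over-expressed and 1 under-expressed, and 8 were higher and 1 lower at the adjusted p alone. Hspa1b, an inducible cytosolic HSP70 gene, was at 8.79, 9.21 and 9.01 CPM in Clrn1-/- and at 35.2, 40.9 and 35.7 CPM in the double mutant (log2 fold change 2.05, adjusted p = 8.3e-07). Hspa1a is its near-identical neighbour, and reads between the pair may be split uncertainly. It was at 7.81, 8.36 and 7.82 CPM against 24.6, 23.7 and 26.9 CPM (log2 fold change 1.65, adjusted p = 1.8e-06). Both had Clrn1-/- at the wild-type level and Clrn2-/- above it, at 26.3 ± 9.14 CPM for Hspa1b (SD, n = 3). Of 31 genes of the integrated stress response 5 were over-expressed and none under-expressed (median log2 fold change 0.08), with 3 over-expressed without double-mutant replicate 2. Atf3, a stress-induced transcription factor gene also induced in injured neurons, rose from 11.3, 10.1 and 9.45 CPM to 29.9, 28.1 and 29.9 CPM (log2 fold change 1.51, adjusted p = 3.6e-08). Fgf21, a hormone gene switched on by this pathway, was at 0.253, 0.362 and 0.597 CPM against 2.79, 4.25 and 1.80 CPM (adjusted p = 1.1e-05), and at 5.87 ± 0.835 CPM in Clrn2-/- (SD, n = 3).

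Immediate-early genes were over-expressed in 8 of 29 cases and under-expressed in none, with 18 higher at the adjusted p alone. Fos, an activity- and stress-induced transcription factor gene, was at 13.4, 8.62 and 9.22 CPM against 15.5, 17.6 and 19.5 CPM (log2 fold change 0.76, adjusted p = 0.0011). Dusp1, a phosphatase gene that feeds back on MAP kinases, was at 32.3, 31.0 and 29.7 CPM against 50.7, 59.4 and 60.8 CPM (log2 fold change 0.88, adjusted p = 1.3e-07). Klf2, a zinc finger factor gene, was at 22.2, 24.2 and 21.8 CPM against 40.9, 40.8 and 40.1 CPM (log2 fold change 0.84, adjusted p = 6.1e-06), and wild-type was at 45.8 ± 6.28 CPM. The libraries of the genotypes did not overlap in any of the 3 genes, though for Klf2 the double mutant was at the wild-type level and Clrn1-/- below it. Of 27 neurotrophic genes 3 were over-expressed and 1 under-expressed. Bdnf, a survival factor gene of auditory neurons, was at 6.45, 6.49 and 7.27 CPM against 11.4, 12.8 and 11.8 CPM (log2 fold change 0.83, adjusted p = 7.9e-06). Gfra1, the GDNF co-receptor gene, was at 34.2, 42.4 and 41.1 CPM against 66.9, 62.3 and 74.7 CPM (log2 fold change 0.79, adjusted p = 1.6e-06), with wild-type at 72.5 ± 4.35 CPM (SD, n = 3).

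In the BCL2 family, which sets the threshold of apoptosis, 2 of 22 genes were over-expressed (9.09%) and 1 was under-expressed (4.55%). The shares of all genes tested were 4.62% and 2.61%. Bcl2l14, a less studied member, rose from 2.44, 2.15 and 2.47 CPM to 6.79, 7.28 and 7.76 CPM (log2 fold change 1.63, adjusted p = 2.2e-07). Pmaip1, the gene of the pro-apoptotic protein Noxa, was at 0.316, 0.466 and 0.442 CPM against 0.787, 0.892 and 0.851 CPM (log2 fold change 1.03, adjusted p = 0.023), a call lost without Clrn1-/- replicate 1 or 3, or without double-mutant replicate 2 or 3. Bcl2l11, the gene of the pro-apoptotic protein Bim, was higher at the adjusted p alone (log2 fold change 0.14, adjusted p = 0.044). No member of the mitochondrial ribosome list (77 genes) was called by edgeR's test, limma-voom or DESeq2, with 24 at an unadjusted p under 0.05. Over-expressed were 2 of 83 nuclear oxidative phosphorylation genes (2.41%) and 2 of 44 glycolysis genes (4.55%), no more than the 4.62% of all genes. Ldha, the lactate dehydrogenase gene, was one of the latter, at 104, 91.8 and 100.2 CPM against 145, 148 and 151 CPM (log2 fold change 0.59, adjusted p = 1.5e-07). It lay at the fold minimum and fell below it without a low-count filter and in 8 of the 12 fits that left out 1 library, among them the one without Clrn1-/- replicate 2, which called neither glycolysis gene.

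Complement, cytokine and interferon-inducible genes were also among those called. Of 38 complement, acute phase and cytokine genes 7 were over-expressed and 1 was under-expressed, and for 2 of these 8 only Clrn1-/- lay outside the wild-type and Clrn2-/- range. Cfi, the gene of complement factor I, was at 0.538, 0.492 and 0.909 CPM in Clrn1-/- and at 4.23, 4.25 and 4.12 CPM in the double mutant (log2 fold change 2.68, adjusted p = 7e-08), with wild-type at 2.22 ± 0.246 CPM. C1s1 and C1ra encode the proteases of the first complement component and are neighbours on chromosome 6. C1s1 was at 4.11, 4.37 and 4.42 CPM against 10, 11 and 11.9 CPM (log2 fold change 1.35, adjusted p = 9e-08), and C1ra was 2.73-fold over-expressed (adjusted p = 8.3e-07). For these 3 genes the double mutant was above wild-type and Clrn1-/- below it. The interferon-inducible Ifi200 cluster on chromosome 1, whose members are similar in sequence and whose reads may be assigned uncertainly, had 6 of 11 members over-expressed and 1 under-expressed, and the count of 6 fell to 4 without Clrn1-/- replicate 3 or double-mutant replicate 2. Mndal was at 0.158, 0.129 and 0.0779 CPM against 3.41, 3.39 and 2.09 CPM (adjusted p = 1e-07), with wild-type at 5.17 ± 0.585 CPM. Ifi202b went the other way, at 4.97, 3.83 and 3.58 CPM against 1.31, 0.921 and 1.03 CPM (log2 fold change -1.92, adjusted p = 1e-05), and had no count in any wild-type library. For 5 of the 7 called members only Clrn1-/- lay outside the wild-type and Clrn2-/- range. Of 57 interferon response genes 2 were over-expressed and 2 under-expressed, and none of 24 MHC genes was called by edgeR's test, limma-voom or DESeq2, with 10 at an unadjusted p under 0.05. Macrophage markers summed to 322 to 347 CPM and 335 to 391 CPM.

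Some of the largest differences came with a level in Clrn1-/- that no other genotype had. Plbd1, a phospholipase gene on chromosome 6, was at 78.6, 95.5 and 109 CPM in Clrn1-/- and at 3.87, 4.25 and 3.22 CPM in the double mutant (log2 fold change -4.65, SE 0.12, adjusted p = 7.6e-13). Wild-type was at 2.23 ± 0.231 CPM and Clrn2-/- at 3.03 ± 0.0867 CPM (SD, n = 3). Myl1, a fast skeletal myosin light chain gene, was at 42.7, 39.6 and 36.6 CPM against 3.08, 2.65 and 2.40 CPM (log2 fold change -3.88, adjusted p = 5.2e-12), with wild-type at 9.48 ± 1.24 CPM. Of 12 skeletal muscle markers 2 were under-expressed and 1 over-expressed, and their sum, which includes Myl1, was 496 to 556 CPM against 399.9 to 427 CPM. Zfp990, a zinc finger gene on chromosome 4, was at 4.52, 4.24 and 3.77 CPM against 0.0328, 0 and 0.0258 CPM, and was at or near 0 in wild-type and Clrn2-/- too. St6galnac1, a sialyltransferase gene, had 124 counts over the Clrn1-/- libraries and none in the double mutant, wild-type or Clrn2-/- libraries. Taking 3 counts per library as the floor, it was at least 12.6-fold lower in the double mutant. The 2 genotypes separated completely at each of these 4 genes, which the rule for choosing the largest changes required.

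Other genes were low in Clrn1-/- and higher in the other 3 genotypes. Ccl27a, a chemokine gene on chromosome 4, was at 1.27, 0.828 and 0.935 CPM in Clrn1-/- and at 12.5, 12.3 and 10.9 CPM in the double mutant (log2 fold change 3.57, SE 0.12, adjusted p = 1.5e-11), with wild-type at 19.1 ± 0.372 CPM and Clrn2-/- at 18.7 ± 1.11 CPM (SD, n = 3). The double mutant thus lay between Clrn1-/- and wild-type. Zfp982, a zinc finger gene on chromosome 4, was at 0.0949, 0.362 and 0.260 CPM against 2.00, 2.29 and 1.93 CPM (log2 fold change 3.05, adjusted p = 1.2e-06), with wild-type at 2.06 ± 0.439 CPM. Of 159 zinc finger genes of the Zfp600 to Zfp999 series, 3 were over-expressed and 7 under-expressed, and for 9 of the 10 only Clrn1-/- lay outside the wild-type and Clrn2-/- range.

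Cytosolic ribosomal protein genes were affected broadly but slightly. Of 79 genes 62 were higher and none lower at the adjusted p alone (median log2 fold change 0.21), and 6 passed the fold minimum. Rpl21 was at 56.5, 59.5 and 72.1 CPM against 157, 160.3 and 168 CPM (log2 fold change 1.37, adjusted p = 1.7e-09), with wild-type at 151 ± 4.09 CPM. Rpl29 was at 7.88, 7.22 and 7.77 CPM against 52.4, 68.4 and 83.2 CPM (log2 fold change 3.16, adjusted p = 1.9e-10), with wild-type at 111 ± 1.36 CPM (SD, n = 3). In both the Clrn1-/- libraries were the low ones. Ribosomal protein genes have many near-identical processed pseudogenes, so their counts are uncertain. Processed pseudogenes themselves were called more often than protein-coding genes, with 84 over-expressed and 33 under-expressed of 848 tested, against 616 and 329 of 15163.

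**Figure D4:**
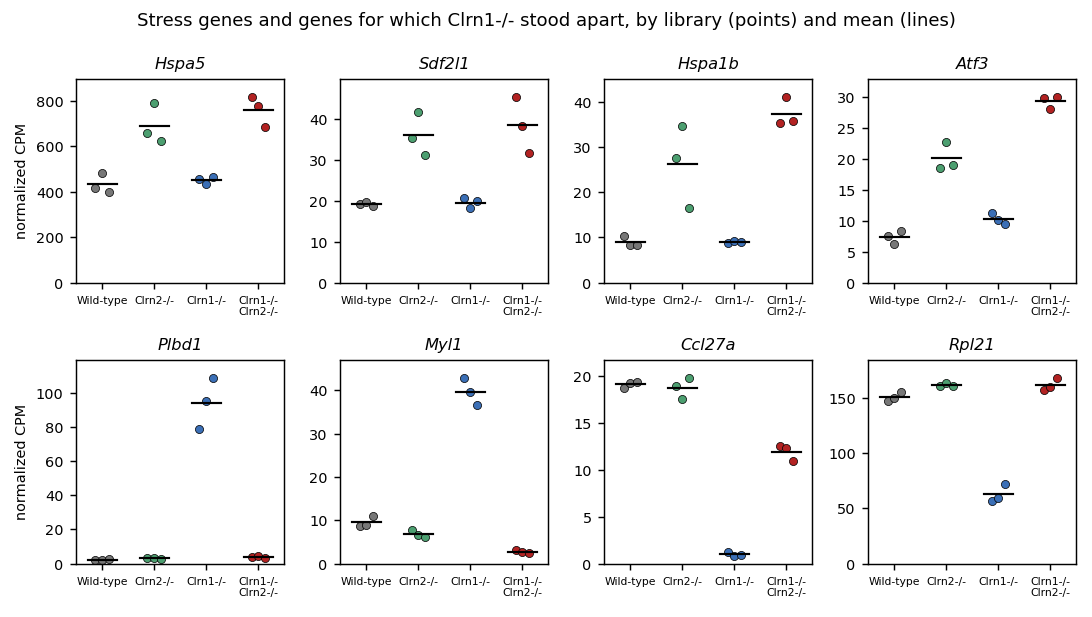
CPM (vertical axis, from 0) in each library of the 4 genotypes for 4 stress genes (Hspa5, Sdf2l1, Hspa1b, Atf3) and 4 genes at which Clrn1-/- stands apart (Plbd1, Myl1, Ccl27a, Rpl21), with points for libraries and bars for genotype means. The stress genes are raised in both genotypes lacking clarin-2, while the other 4 differ mainly in the Clrn1-/- libraries. Myl1 and Ccl27a are also lower in the double mutant than in wild-type.

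Blood, connective tissue and ribosomal RNA signals also differed between these libraries. Red blood cell genes were over-expressed in 5 of 7 cases, with sums of 286 to 389 CPM in Clrn1-/- and 547 to 738 CPM in the double mutant, and 710.0 to 1159.7 CPM in wild-type. Alas2, which encodes the enzyme that starts erythroid haem synthesis, was at 12.3, 9.94 and 12 CPM against 28.8, 22.3 and 22.5 CPM (log2 fold change 1.10, adjusted p = 0.00015). Fibrocyte and mesenchyme markers summed to 5686 to 6269 CPM against 7688 to 9089 CPM, with Coch as the 1 called gene of 13. Coch, the gene of the matrix protein cochlin, was at 3722, 3477 and 3401 CPM against 4891, 5459.6 and 6091 CPM (log2 fold change 0.63, adjusted p = 0.00015), a call that fell below the fold minimum without double-mutant replicate 3. Genes overlapping ribosomal RNA repeats, a list drawn up with the results known, were over-expressed in 8 of 8 cases and summed to 1487 to 1955 CPM against 3126 to 5523 CPM, with wild-type at 1984 to 2411 CPM. The double-mutant range did not overlap the Clrn1-/- range for any of these 3 sums. Their part in the other results was not tested, beyond the fit without the repeat genes, which left 873 over-expressed and 497 under-expressed genes. Markers of stria vascularis, a tissue removed at dissection, were still detected, at 1365 to 1505 CPM against 1490.2 to 1556 CPM, and Pmel, a pigment cell gene, fell from 31.3, 27.1 and 25.7 CPM to 6.98, 5.74 and 9.62 CPM (log2 fold change -1.90, adjusted p = 4.5e-07). Ttr, the transthyretin gene, was called from 1 library alone, with 133 CPM in double-mutant replicate 1 and 8.83 and 8.64 CPM in the others, and the call was lost without it.

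The effect of clarin-2 loss in the absence of clarin-1 was then set beside its effect in the presence of clarin-1, that is Clrn2-/- against wild-type, which shares no library with the main comparison. There 236 genes were over-expressed (1.24%) and 271 under-expressed (1.42%). Of the 880 genes over-expressed in the double mutant 80 (9.09%) were also over-expressed in Clrn2-/- against wild-type and 38 (4.32%) were under-expressed there. The same 80 are 33.9% of the 236. Of the 498 under-expressed genes 48 (9.64%) were also under-expressed and 11 (2.21%) over-expressed, and the 48 are 17.7% of the 271. Across the 19052 genes tested Pearson's r between the effects was 0.15 and Spearman's rho 0.19, given as a description because genes are not independent and all libraries share 1 fit.

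The difference between the effects was tested as the interaction. It passed in the positive direction for 683 genes (3.58%) and in the negative direction for 365 (1.92%). Of the 880 over-expressed genes 414 (47.0%) had a called positive interaction, and of the 498 under-expressed genes 177 (35.5%) had a called negative one. The main difference is itself a term of the interaction. Genes picked for a large main difference therefore lean towards an interaction of the same sign, and these shares do not measure dependence on clarin-1. For Krt8 the log2 effect of clarin-2 loss was 1.94 without clarin-1 and 1.03 with it, a difference of 0.90 (SE 0.09, adjusted p = 1.2e-05). For Bcam the effects were 1.36 and 0.43, a difference of 0.92 (SE 0.10, adjusted p = 2.1e-05). Sv2c gave -1.34 and -0.30, a difference of -1.04 (SE 0.09, adjusted p = 2.7e-06). For these 3 genes clarin-2 loss went in the same direction in both settings and by more where clarin-1 was absent.

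The interaction was not called for several stress genes. Hspa5 had effects of 0.75 and 0.67 (difference 0.08, SE 0.12, adjusted p = 0.73). Atf3 had effects of 1.51 and 1.45 (difference 0.07, SE 0.14, adjusted p = 0.81). Sdf2l1 had effects of 0.97 and 0.91 (difference 0.06, SE 0.16, adjusted p = 0.84). Each of these 3 had a called effect in both settings, and their difference was not detected, which does not show that the effects were equal. For Creld2, in contrast, the effects were 0.92 and 0.26, a called difference of 0.67 (SE 0.15, adjusted p = 0.0057). Of the 31 integrated stress response genes 2 had a called positive interaction and 3 a called negative one. Kcnj3 and Kcnd2 were likewise called in both settings, with effects of -1.18 and -0.84 for Kcnj3 and of -0.99 and -0.87 for Kcnd2, and their interactions did not pass (adjusted p = 0.08 and 0.61). Coch went in opposite directions, 0.63 without clarin-1 and -0.64 with it (difference 1.28, SE 0.14, adjusted p = 2.3e-05), as did Cebpb, a stress- and cytokine-responsive transcription factor gene, with 0.84 and -0.69 (difference 1.53, SE 0.16, adjusted p = 1.2e-05). Fgf21 was raised in both settings but by less without clarin-1 (difference -1.87, SE 0.56, adjusted p = 0.03).

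**Figure D5:**
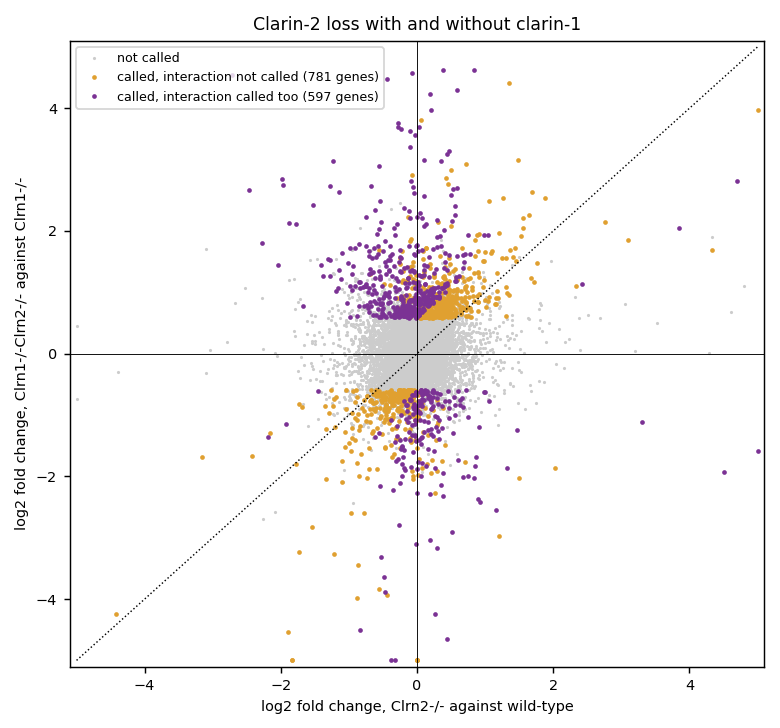
Log2 fold change of each tested gene for clarin-2 loss with clarin-1 present (horizontal axis, Clrn2-/- against wild-type) and absent (vertical axis, Clrn1-/-Clrn2-/- against Clrn1-/-), both axes clipped at 5 with 13 genes beyond. Of the genes called in the main comparison, 597 are marked with a called interaction and 781 without one. The interaction is the distance from the diagonal, so the marked genes lie away from it by construction.

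The called genes were spread over the genome with local concentrations. Within 10 Mb of Clrn1 (chr3:58844028-58885340) 6 of 112 tested genes were over-expressed and 2 under-expressed (7.14%), and within 10 Mb of Clrn2 (chr5:45453751-45464149) 4 of 106 were over-expressed and 5 under-expressed (8.49%), beside 7.23% of all genes. Windows of 10 Mb with the highest shares were chromosome 6 from 130 to 140 Mb with 14 of 49 genes (28.6%), which holds Plbd1, and chromosome 3 from 120 to 130 Mb with 19 of 69 genes (27.5%), which holds Cfi. Chromosome 13 from 0 to 10 Mb came next, with 7 of 26 genes (26.9%). Other windows are given for the genes they hold and not by rank. Chromosome 4 from 140 to 150 Mb, which holds Zfp990 and Zfp982, had 31 of 126 genes (24.6%). Chromosome 1 from 170 to 180 Mb, which holds the Ifi200 cluster, had 21 of 118 (17.8%). By chromosome, the shares ran from 3.66% on X to 11.1% on chromosomes 1 and 4, leaving aside Y with 8 tested genes.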

How the data were processed

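Poly-A RNA of dissected organs of Corti was sequenced from directional libraries as paired reads. The authors aligned them with STAR to GRCm38.p6 with Gencode vM24, and the deposited values are raw counts of read pairs per gene, in 3 columns for unstranded and both stranded settings. The reverse-strand column was used here, since 95.2% to 95.6% of stranded counts fell in it. The 4 totals that name no gene, 13.5% to 15.8% of read pairs, were left out.

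Libraries were grouped by the genotype in the labels. Counts were scaled by TMM factors (0.963 to 1.017) and fitted with edgeR 4.0.16 (R 4.3.3) by the quasi-likelihood test, all 12 libraries in 1 fit of 4 genotypes, after filterByExpr with a minimum count of 10. P-values were adjusted by Benjamini-Hochberg over all 19052 genes. Levels are CPM on the TMM scale. The common coefficient of variation between replicates was 6.15%. No pair of replicates within Clrn1-/- or within the double mutant agreed within sampling noise (chi-square per gene 4.47 to 9.17), and pairs of the other genotypes were not measured. The fit was tested on simulated data. Alternatives were limma-voom (limma 3.58.1, the test of the study's methods), DESeq2 1.42.0, library size scaling, no filter, the compared genotypes alone, unstranded counts, a replicate block, no fold minimum and each library left out. A fit without the ribosomal RNA repeat genes and a fit without replicate 1 of both genotypes were chosen after seeing the data.

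Named genes were Clrn1 and Clrn2, the 15 largest changes per direction with non-overlapping libraries, the called members of each function list with the largest changes (4 per direction, or 3 for marker lists) and genes the study names. Of these 196, those the text describes were selected by function. Calb2, Calr, Canx, Cdh1, Dnajc3, Dsp, Epcam, Gjb2, Hspa5, Otof, Pdia4, Pmaip1, Snap25, Tmc2 and Tubb3 were chosen after their values were seen. The members and the 40 function and 17 marker lists were chosen with earlier results of these data known, and 3 lists were added after the fit. Gene symbols are those of the deposited files; 53244 of 55348 matched a single gene of an older Gencode release on GRCm38 (vM21), which gave places and types, and promoters came from RefSeq. Intervals and floors cover counting error only.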

Additional observations from a re-analysis of the deposited data

Results flagged for a closer look

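Of 104 genes named in the report, 46 had an effect of clarin-2 loss that differed between the absence and the presence of clarin-1 by the interaction test of edgeR (adjusted p of at most 0.05 and at least 1.5-fold), 32 higher and 14 lower without clarin-1. The values below are that difference on the log2 scale, the effect without clarin-1 minus the effect with it. Ifi202b is not given a value, because it had no count in wild-type and the size of its difference rests on the fit.

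Among epithelial, junction and tectorial membrane genes the difference was 0.90 for Krt8, 0.81 for Krt18, 0.92 for Bcam, 1.09 for Dsp, 0.68 for Cldn3, 0.69 for Cldn9, 0.81 for Gjb2, 0.62 for Ceacam16, 0.68 for Tmprss3, 0.61 for S100a1, 0.69 for Gsn, 0.85 for Dkk2, 0.71 for Kcnj16 and 0.84 for Fxyd2. Sprr1a, in contrast, had a difference of -1.80, as its increase over the very low wild-type level was larger with clarin-1 present.

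Among neuronal genes the difference was -1.04 for Sv2c, -0.92 for Sv2b, -0.89 for Ank2, -0.75 for Map2, -0.59 for Hapln4, -0.65 for Ryr2 and -1.18 for Nlgn3. In the inner hair cell and neurotrophic groups it was 0.78 for Slc17a8 and 0.76 for Gfra1.

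Among stress, apoptosis and immune genes the difference was 0.67 for Creld2, 1.53 for Cebpb, 0.98 for Dusp1, 1.24 for Klf2, -1.87 for Fgf21, 1.22 for Bcl2l14, 1.35 for C1ra, 1.46 for C1s1, 2.15 for Cfi, 3.60 for Ccl27a and 4.65 for Mndal. Among genes at which Clrn1-/- stood apart from the other genotypes the difference was -5.08 for Plbd1, 3.61 for Zfp982, 3.06 for Rpl29 and 1.27 for Rpl21. It was -3.41 for Myl1 and -1.72 for Pmel, at which the double mutant also lay outside the wild-type and Clrn2-/- range. The difference was 1.86 for Alas2 and 1.28 for Coch, whose marker lists also differed between the libraries. It was -3.02 for Ryr1, which was low in wild-type alone, and 1.38 for Clrn2 itself, which fell in Clrn2-/- against wild-type and did not differ in the main comparison.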

How the results depend on the processing

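With a fold minimum, the main comparison gave 741 to 939 over-expressed and 447 to 629 under-expressed genes under the alternatives, all within 1.5 times the main counts. Leaving out 1 library gave 741 (without Clrn1-/- replicate 2) to 905 over-expressed and 459 (without Clrn1-/-Clrn2-/- replicate 2) to 561 under-expressed genes, and at least 77.6% and 80.3% of the calls remained. For Clrn2-/- against wild-type the same fits gave 163 to 248 and 206 to 334 genes, and for the interaction 548 to 733 and 331 to 422. Without the fold minimum the counts became 2996 and 2787 in the main comparison, 1360 and 1347 in Clrn2-/- against wild-type, and 1775 and 1536 for the interaction, since smaller changes then counted, and the over-expressed share of calls became 51.8%, against 59.9% to 64.6% otherwise. Same-numbered libraries did not deviate together (correlations -0.05, -0.05 and 0.16 over 12453 genes) and share only a number. A fit with the replicate block gave 873 over-expressed and 496 under-expressed genes and changed no call of the 104 genes named. Of their values under alternatives, none changed direction past the test, 40 lost a call and 13 gained one, 10 of these without the fold minimum. The calls lost under some alternative were those of Coch, Epyc, Gjb2, Itga8, Ldha, Pmaip1, Ptprq, Tmc2, Ttr, Ush1c, Wnt4 and Xirp2. Depth limits the low genes. Differences at levels near 1 CPM rest on about 30 to 40 counts a library. With 3 libraries per genotype, changes just under or over 1.5-fold move across it as single libraries are left out.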

Other observations

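The remaining gene lists are given as counts, beside 4.62% over-expressed and 2.61% under-expressed of all genes tested. Some lay above these shares, such as keratins and the cornified envelope (23.5% over-expressed) and calcium buffers (14.3% over-expressed). Others lay below, such as antioxidant genes (1.82% in each direction). Over- and under-expressed members numbered 3 and 2 of 70 for axon guidance, 3 and 2 of 29 for FGF ligands and receptors, 3 and 1 of 21 for calcium buffers, 4 and 1 of 17 for keratins and the cornified envelope, 4 and 3 of 45 for matrix proteases and inhibitors, 0 and 2 of 41 for collagens, 1 and 1 of 55 for antioxidant genes, 1 and 0 of 35 for cholesterol and fatty acid synthesis, and 1 and 1 of 13 for the mechanotransduction complex. The circadian clock list had 2 over-expressed genes of 21, Nr1d1 and Per2, and between 0 and 4 under the alternatives, with none without Clrn1-/- replicate 1. Among cell type markers the numbers were 1 and 0 of 10 for inner hair cells, 1 and 1 of 12 for endothelium, 1 and 1 of 12 for bone, 0 and 1 of 12 for neutrophils and B cells, 1 and 0 of 14 for macrophages, 1 and 1 of 14 for stria vascularis and 1 and 1 of 16 for dividing cells. Outer hair cell markers (12 genes), caveolae (9), osteoclasts (4) and sex-linked genes (6) had no call by edgeR's test, limma-voom or DESeq2, with 8, 5, 1 and 0 genes at an unadjusted p under 0.05.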
